A study of Homo sapiens with 6 samples.

Results

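The genes described here are 40 genes of protein folding, quality control and import in the endoplasmic reticulum (ER), chosen by symbol from the 60675 genes of the count table. They comprise 4 genes of stress sensing, 16 chaperones and disulfide isomerases, 10 genes of ER-associated degradation (ERAD) and 10 genes of the translocon and signal peptidase. Their RNA was measured in HCT116, an established human colorectal carcinoma line, in 3 groups of 2 libraries. The first group was wild-type cells given SP2509, which is known to inhibit LSD1 (KDM1A), a histone demethylase, at 3 uM for 48 h. The second group carried a transient knockdown of PIR, the gene of the iron-binding nuclear protein Pirin, by small interfering RNA (siPIR) for 48 h. The third group was untreated wild-type cells, which served as the reference for both.

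Several points limit these groups as models. For the siPIR samples the treatment label gives SP2509 beside the knockdown, so knockdown alone and knockdown with the compound cannot be told apart. A non-targeting siRNA group was not analysed here, so transfection and loss of PIR cannot be told apart. DMSO is mentioned in the treatment protocol, and it is unstated if untreated cells were given it. Whether replicates were separate cultures is unstated, so the p-values measure only the spread between these libraries, which may be technical. Both comparisons with untreated cells use the same 2 untreated libraries.

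Secretory and membrane proteins enter the ER through the SEC61 channel, lose their signal peptide to signal peptidase, and fold with the help of chaperones and disulfide isomerases. Proteins that fail to fold are returned to the cytosol by ERAD and degraded by the proteasome. When unfolded proteins accumulate, the sensors IRE1, PERK and ATF6 start the unfolded protein response, which raises transcription of many of these genes through XBP1, ATF6 and ATF4. IRE1 acts by splicing XBP1 mRNA, a change that counts per gene do not show.

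Many known targets of this response carry short promoter elements, and the windows that hold matches to them are given here. Binding of the factors was not measured. Promoters from 250 bases before to 50 bases after the start were taken from RefSeq (GRCh38.p14), where 37 of the 40 genes matched (not DERL1, PDIA3 and DERL3). They were searched on both strands for the ER stress response element (ERSE, CCAAT and CCACG with 9 bases of any kind between them), for ERSE-II (ATTGG and CCACG with 1 base of any kind between them), for the unfolded protein response element (UPRE, TGACGTGG) and for an ATF4 element (TGATGCAA). An ERSE or ERSE-II was found in 10 of the 37 genes (27%), against 44 of all 27305 genes with a promoter in the table (0.161%). Many of these genes are textbook targets from which the elements were first described, so the share is a description. The ERSE was found in 7 genes (18.9%, against 0.0916% of all genes), ERSE-II in 3 (8.11%, against 0.0696%), the UPRE in 4 (10.8%, against 0.927%) and the ATF4 element in 1 (2.7%, against 1.08%). A match says only that these letters are in the window.

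The HSPA5 promoter is printed whole, and the others as the stretch around their matches. Capitals mark the matches, which stand in either orientation, and each sequence runs 5′ to 3′ on the strand of its gene.
HSPA5 (chr9:125241294-125241593, minus strand): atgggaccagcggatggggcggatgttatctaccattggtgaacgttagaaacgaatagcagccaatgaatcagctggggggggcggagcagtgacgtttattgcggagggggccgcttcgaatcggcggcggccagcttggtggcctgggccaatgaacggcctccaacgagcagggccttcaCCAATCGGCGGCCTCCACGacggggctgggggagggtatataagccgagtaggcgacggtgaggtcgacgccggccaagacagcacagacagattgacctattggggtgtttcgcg
HSP90B1 (chr12:103930210-103930345, plus strand): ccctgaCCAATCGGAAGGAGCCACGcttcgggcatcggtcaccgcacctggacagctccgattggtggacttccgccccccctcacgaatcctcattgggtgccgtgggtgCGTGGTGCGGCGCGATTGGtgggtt
HYOU1 (chr11:119057267-119057400, minus strand): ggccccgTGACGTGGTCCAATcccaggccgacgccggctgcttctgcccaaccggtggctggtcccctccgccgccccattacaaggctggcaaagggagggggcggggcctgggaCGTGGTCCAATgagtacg
HERPUD1 (chr16:56931957-56932042, plus strand): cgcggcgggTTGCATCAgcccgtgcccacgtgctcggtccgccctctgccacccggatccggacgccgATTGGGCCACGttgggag
XBP1 (chr22:28800590-28800634, minus strand): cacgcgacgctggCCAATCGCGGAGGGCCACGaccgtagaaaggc
CALR (chr19:12938371-12938415, plus strand): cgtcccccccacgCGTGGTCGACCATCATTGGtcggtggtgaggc
CANX (chr5:179698765-179698809, plus strand): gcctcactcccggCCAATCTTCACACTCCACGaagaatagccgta
PDIA6 (chr2:10812840-10812884, minus strand): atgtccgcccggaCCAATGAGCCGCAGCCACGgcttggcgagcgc
SDF2L1 (chr22:21642097-21642141, plus strand): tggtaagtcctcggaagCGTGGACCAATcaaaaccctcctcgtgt
CRELD2 (chr22:49918541-49918585, plus strand): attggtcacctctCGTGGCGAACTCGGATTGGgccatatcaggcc
HSPA5, XBP1, CANX, PDIA6, CALR and CRELD2 each showed 1 ERSE, reversed in CALR and CRELD2, and HSP90B1 showed 1 in each orientation. HYOU1 held a reversed ERSE-II that overlaps its UPRE, and a second reversed ERSE-II nearer the start. HERPUD1 held a reversed ATF4 element followed by an ERSE-II, and SDF2L1 held a reversed ERSE-II. The window shown for XBP1 belongs to the second of its annotated starts and that for CANX to the fourth. The other UPRE matches were in DNAJC10, SEC62 and SSR3.

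**Figure D1:**
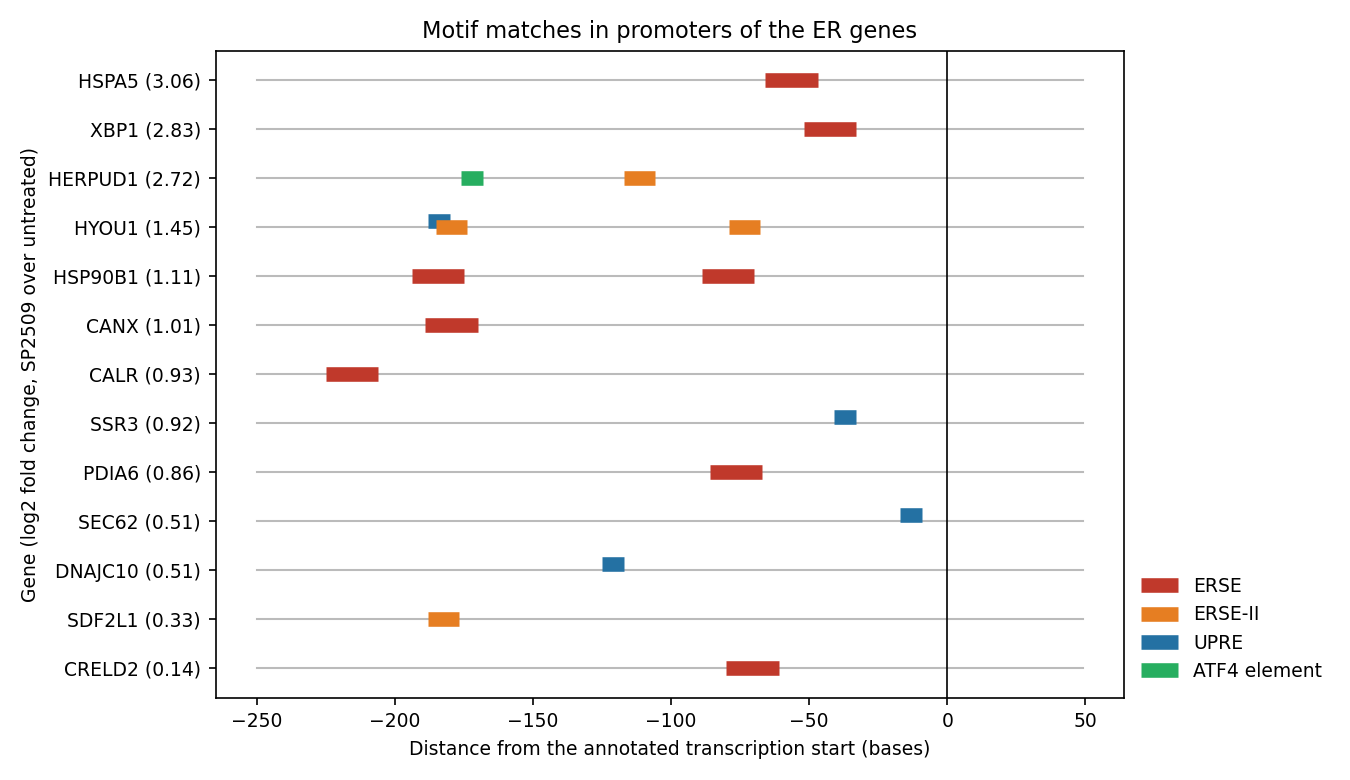
Positions of motif matches in the promoters of the 13 genes with at least 1 match, with distance from the annotated transcription start in bases on the x axis and the genes, with their log2 fold change in SP2509 over untreated cells, on the y axis. Colours mark the motif; genes with an ERSE or ERSE-II span changes between 0.14 (CRELD2) and 3.06 (HSPA5), so a match did not go with one size of change.

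The libraries held between 22622441 and 28816590 counts. Of the 40 genes, 39 passed the count filter, and DERL3 had 0 counts in every library. Levels are given as CPM, counts relative to library size, with trimmed-mean (TMM) normalisation factors applied. PIR itself had 37 and 39 counts in the siPIR libraries, against 519 and 462 in the untreated libraries (log2 fold change -2.87, edgeR adjusted p = 3.39e-09). The epithelial markers KRT8, KRT18, KRT19, EPCAM and CDH1 were present in every library, VIL1 was near 0, and PTPRC, CD3E, COL1A2 and CDH5 were at 0 throughout. The 7 epithelial markers summed to 4636 and 4689 CPM in SP2509 cells, 1319 and 1327 CPM in siPIR cells, and 3643 and 3574 CPM in untreated cells, and lists of fibroblast, leukocyte and endothelial markers to at most 25.7 CPM in any library. Mitochondrial ribosomal RNA took 6.33% and 6.93% of counts in the SP2509 libraries, between 1.14% and 1.36% in the siPIR libraries and about 1.6% in the untreated libraries. Weighted by counts, transcripts of the siPIR libraries had a GC content of 42.27% and 42.76%, whereas the other 4 libraries lay between 48.26% and 48.66%, a shift that touches every siPIR value below. The part of the marker and ribosomal RNA differences in the results was not tested.

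Together the 40 genes took 1.61% and 1.55% of all counts in SP2509 cells, 1.09% in both siPIR libraries, and 0.822% and 0.823% in untreated cells. HSPA5 alone, the gene of the chaperone BiP, took 0.450% and 0.436% in SP2509 cells, against 0.0697% and 0.0694% in untreated cells. In bulk RNA, fewer cells of a kind and less RNA per cell cannot be told apart.

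**Figure D2:**
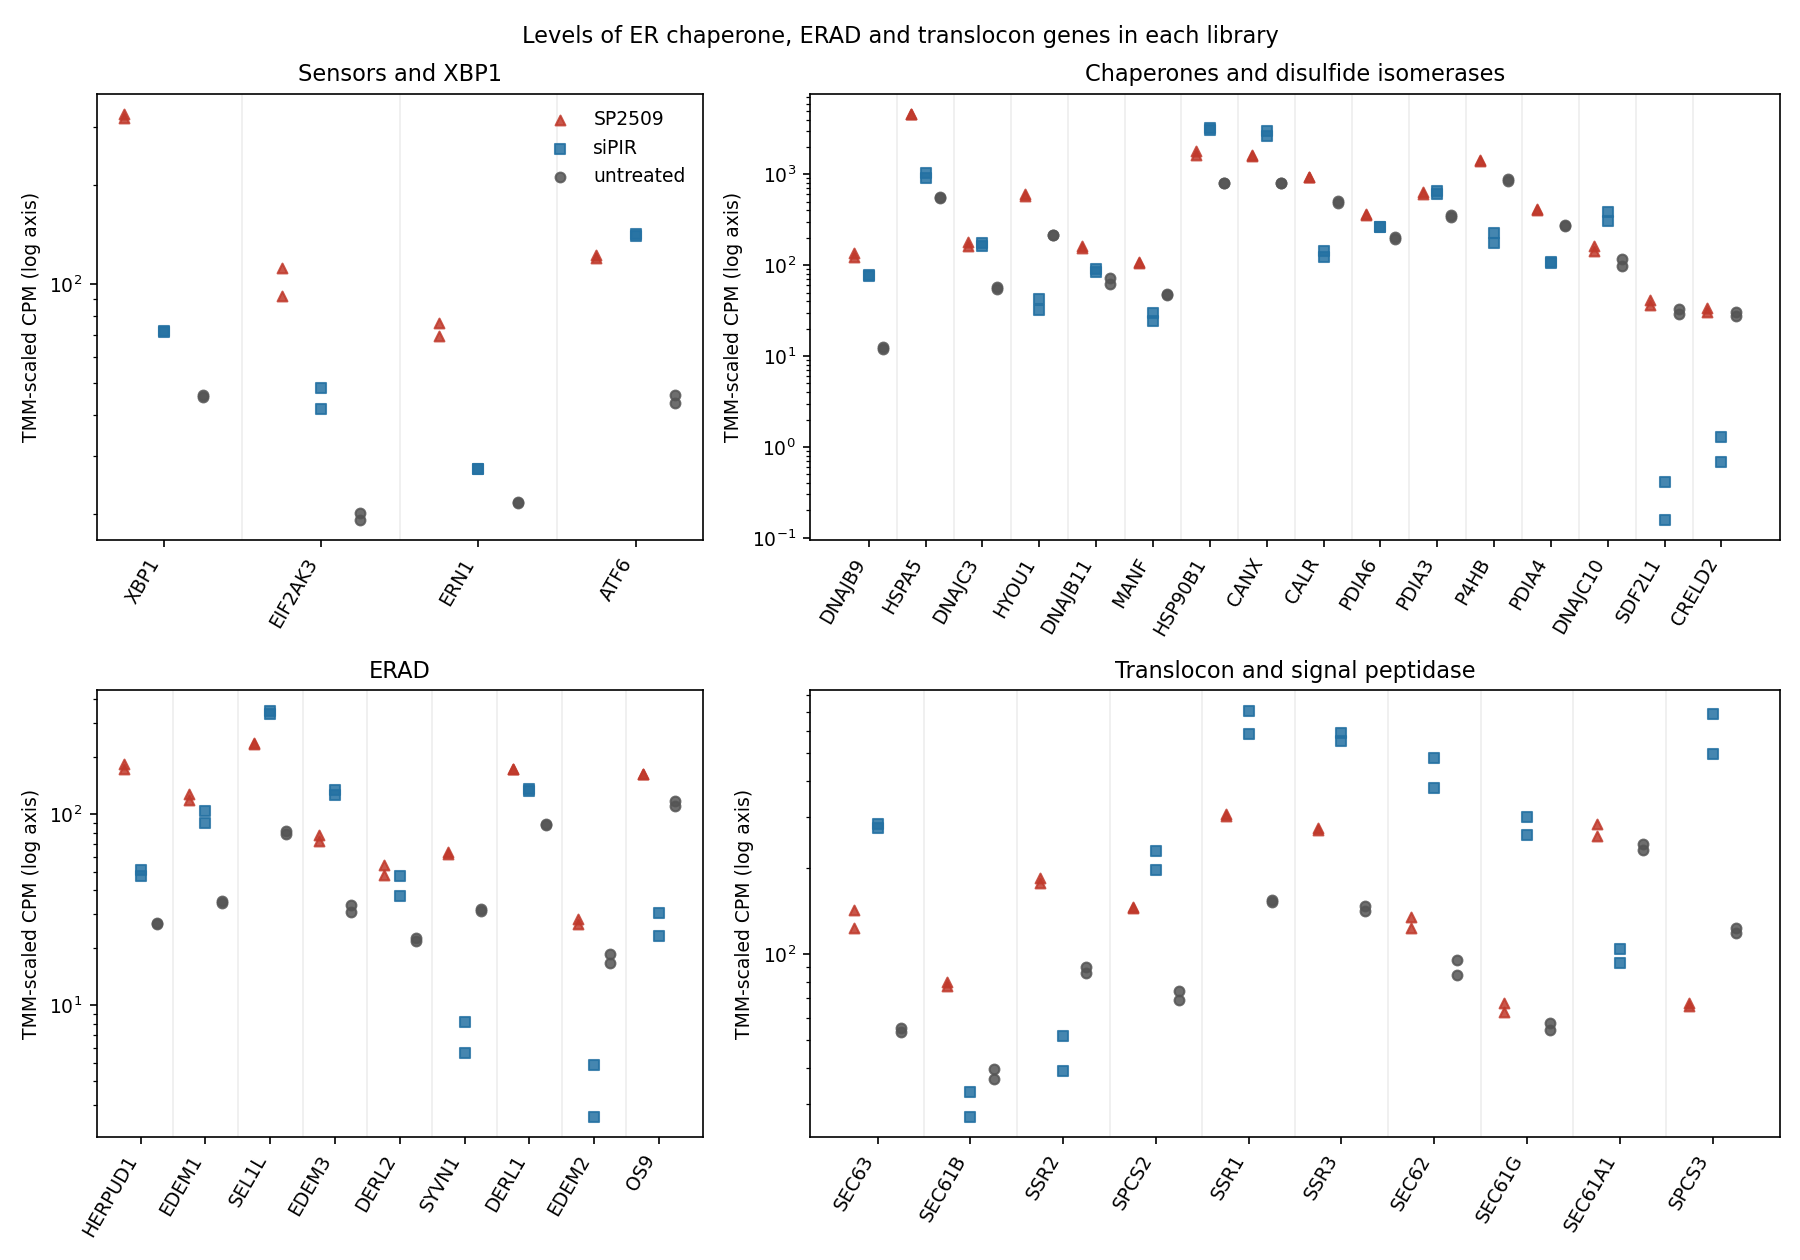
Level of each of the 39 tested genes in every library, in TMM-scaled CPM on a log axis, in 4 panels by role with genes in order of their change in SP2509 cells. Triangles are SP2509, squares siPIR and circles untreated libraries (2 each); SP2509 lay above untreated in nearly every gene, as in HSPA5 (4628 and 4581 against 556 and 548), whereas siPIR libraries lay on both sides.

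Cells given SP2509 were compared with untreated cells to ask how the compound changed the ER folding and quality control genes. Most of them rose. Of the 39 tested genes, 35 were higher, only SPCS3 was lower, and CRELD2, SEC61A1 and SEC61G did not pass the test (edgeR, adjusted p below 0.05). Over all 16503 genes tested, 33.5% were called higher and 35.1% lower. The ER genes were chosen with earlier results of these data known, so the comparison with all genes is a description. With an offset for GC content and transcript length 38 were higher and SPCS3 lower (38.2% and 34.5% of all genes), with CRELD2 (0.29, adjusted p = 0.0112), SEC61A1 (0.31, adjusted p = 0.000541) and SEC61G (0.20, adjusted p = 0.0169) then called higher. Of the 39 genes, 21 were called higher by over 2-fold, against 12.9% of all genes. Their log2 fold changes had a median of 1.01, against -0.04 for all genes. The groups did not overlap in 38 of the 39 genes, the exception being CRELD2, but that held for 86.9% of all genes.

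All 4 genes of stress sensing were higher in SP2509 cells. XBP1 (chr22:28794555-28800597, GRCh38), the transcription factor downstream of IRE1, had 320 and 329 CPM in SP2509 cells, 71.7 and 71.4 CPM in siPIR cells, and 45.2 and 45.8 CPM in untreated cells. That is a 7.13-fold rise with SP2509 (log2 fold change 2.83, SE 0.098, edgeR adjusted p = 4.55e-10). EIF2AK3 (chr2:88556741-88627576), which encodes PERK, the kinase that slows translation under ER stress, had 112 and 92.0 CPM in SP2509 cells, 41.6 and 48.2 CPM in siPIR cells, and 19.1 and 20.1 CPM in untreated cells. Its log2 fold change was 2.37 (SE 0.123, edgeR adjusted p = 9.38e-09), with every SP2509 library above every other. ERN1 (chr17:64039142-64130819), which encodes IRE1, had 69.3 and 76.1 CPM in SP2509 cells, 27.4 CPM in both siPIR libraries, and 21.5 and 21.7 CPM in untreated cells (log2 fold change 1.75, SE 0.099, edgeR adjusted p = 1.86e-08). ATF6 (chr1:161766294-161964070), the gene of the sensor that is cleaved in the Golgi to a transcription factor, had 119 and 122 CPM in SP2509 cells, 139 and 141 CPM in siPIR cells, and 45.9 and 43.3 CPM in untreated cells. Its log2 fold change with SP2509 was 1.44 (SE 0.095, edgeR adjusted p = 6.62e-08), the smallest of the 4. Without the offset ATF6 was the one sensor gene with its highest level in siPIR cells. With the offset it was lower in siPIR than in SP2509 cells (log2 fold change -1.02).

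Of the 16 chaperones and disulfide isomerases, 15 were higher in SP2509 cells and CRELD2 was not called, with a median log2 fold change of 0.97. DNAJB9 (chr7:108569568-108574850), the BiP co-chaperone ERdj4 and a known XBP1 target, had 136 and 124 CPM in SP2509 cells, against 12.1 and 12.7 CPM in untreated cells. This 10.5-fold rise (log2 fold change 3.39, SE 0.108, edgeR adjusted p = 2.14e-10) was the largest of the 39 genes. HSPA5 (chr9:125234853-125241330), whose product BiP binds unfolded chains and holds the sensors inactive, had 4628 and 4581 CPM in SP2509 cells, against 556 and 548 CPM in untreated cells (8.35-fold, log2 fold change 3.06, SE 0.11, edgeR adjusted p = 5.56e-10). DNAJC3 (chr13:95677139-95794989), the co-chaperone p58IPK, had 178 and 161 CPM in SP2509 cells, against 57.1 and 54.6 CPM in untreated cells (log2 fold change 1.6, SE 0.103, edgeR adjusted p = 5.18e-08). DNAJB9 and DNAJC3 both encode J-domain partners of BiP.

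HYOU1 (chr11:119044189-119057202), the nucleotide exchange factor of BiP, had 573 and 607 CPM in SP2509 cells, against 216 CPM in both untreated libraries (log2 fold change 1.45, SE 0.122, edgeR adjusted p = 4.49e-07). DNAJB11 (chr3:186567403-186585800), the co-chaperone ERdj3, had 162 and 155 CPM in SP2509 cells, against 62.6 and 71.8 CPM in untreated cells (log2 fold change 1.24, SE 0.103, edgeR adjusted p = 4.41e-07). MANF (chr3:51385047-51389397), a small secreted protein that binds BiP, had 107 and 106 CPM in SP2509 cells, against 48.4 and 47.2 CPM in untreated cells (log2 fold change 1.16, SE 0.104, edgeR adjusted p = 8.08e-07). In each of the 3 the groups stood well apart. HSP90B1, the ER form of HSP90 known as GRP94, rose by 1.11 on the log2 scale. The lectin chaperones of glycoproteins rose by 1.01 (CANX) and 0.93 (CALR). The disulfide isomerases rose by less, with log2 fold changes of 0.86 for PDIA6, 0.83 for PDIA3, 0.70 for P4HB and 0.58 for PDIA4.

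The smallest changes of the class were in DNAJC10 and in a pair of genes that carry an ERSE or ERSE-II. DNAJC10, the ER reductase ERdj5, had a log2 fold change of 0.51 (edgeR adjusted p = 0.00366), and without untreated replicate 1 it did not pass the test (0.40, adjusted p = 0.0681). SDF2L1, an ERdj3 partner, had 36.2 and 41.2 CPM in SP2509 cells, against 28.7 and 32.9 CPM in untreated cells (log2 fold change 0.33, edgeR adjusted p = 0.0263). It was not called without untreated replicate 1 (0.24, adjusted p = 0.239) or without SP2509 replicate 2 (0.25, adjusted p = 0.191). CRELD2, a gene known to respond to ER stress, had 33.7 and 30.6 CPM in SP2509 cells, against 30.8 and 27.4 CPM in untreated cells (log2 fold change 0.14, SE 0.122, edgeR adjusted p = 0.308). When 1 library was left out, the value of CRELD2 lay between 0.06 and 0.24. With the offset SDF2L1 was at 0.55 and CRELD2 at 0.29.

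The order of the levels changed with the compound. Per kilobase of the longest transcript, HSPA5 had 1178 ± 8.49 CPM in SP2509 cells, against 141 ± 1.43 CPM in untreated cells (SD, n = 2). It was the highest of the 39 genes in SP2509 cells, ahead of HSP90B1 with 567 ± 41.8 CPM per kilobase and P4HB with 540 ± 11.3, which lay within the spread of each other. In untreated cells P4HB led with 332 ± 7.35 CPM per kilobase, HSP90B1 (262 ± 1.13) and CALR (259 ± 8.63) did not differ beyond their spread, and CANX (187 ± 0.715) also stood above HSPA5.

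All 9 tested ERAD genes were higher in SP2509 cells, with a median log2 fold change of 1.22. HERPUD1 (chr16:56932048-56944863), a membrane protein that organises the HRD1 ligase complex, had 172 and 183 CPM in SP2509 cells, against 26.8 and 27.1 CPM in untreated cells (6.57-fold, log2 fold change 2.72, SE 0.102, edgeR adjusted p = 7.73e-10). EDEM1 (chr3:5187646-5219957), which marks misfolded glycoproteins by trimming mannose, had 128 and 119 CPM in SP2509 cells, against 34.4 and 35.1 CPM in untreated cells (log2 fold change 1.83, SE 0.105, edgeR adjusted p = 2.09e-08). SEL1L (chr14:81471549-81533861), the adaptor of the HRD1 ligase, had 235 CPM in both SP2509 libraries, against 81.4 and 78.7 CPM in untreated cells (log2 fold change 1.55, SE 0.095, edgeR adjusted p = 3.43e-08). The ligase gene itself, SYVN1, rose by less than its adaptor, with a log2 fold change of 0.99. EDEM3 (chr1:184690231-184754913), a relative of EDEM1, had 78.3 and 72.3 CPM in SP2509 cells, against 30.9 and 33.5 CPM in untreated cells (log2 fold change 1.23, SE 0.101, edgeR adjusted p = 3.93e-07). The log2 fold changes were 1.22 for DERL2 and 0.97 for DERL1, whose products sit in the membrane at the exit channel, 0.64 for EDEM2 and 0.51 for the lectin gene OS9.

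The translocon and signal peptidase genes split. Of the 10 genes, 7 were higher in SP2509 cells, 1 was lower and 2 were not called, and the median log2 fold change was 0.96. SEC63 (chr6:107867756-107958189), which couples BiP to the channel, had 142 and 123 CPM in SP2509 cells, against 53.6 and 55.2 CPM in untreated cells (log2 fold change 1.29, SE 0.103, edgeR adjusted p = 3.16e-07). SEC61B (chr9:99222064-99230615), a small subunit of the channel, had 80.1 and 77.6 CPM in SP2509 cells, against 36.8 and 39.8 CPM in untreated cells (log2 fold change 1.04, SE 0.109, edgeR adjusted p = 3.09e-06). SSR2 (chr1:156009048-156020959), a subunit of the TRAP complex beside the channel, had 177 and 185 CPM in SP2509 cells, against 90.3 and 86.2 CPM in untreated cells (log2 fold change 1.04, SE 0.121, edgeR adjusted p = 7.60e-06). The other TRAP genes also rose, with log2 fold changes of 0.99 for SSR1 and 0.92 for SSR3, while SEC62, another partner of the channel, rose by 0.51.

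Within signal peptidase, SPCS2 and SPCS3 went opposite ways. SPCS2 (chr11:74949247-74979031) had 145 and 144 CPM in SP2509 cells, against 69.1 and 74.3 CPM in untreated cells (log2 fold change 1.01, SE 0.105, edgeR adjusted p = 2.79e-06). SPCS3 (chr4:176319964-176332245) had 67.2 and 66.1 CPM in SP2509 cells, against 124 and 118 CPM in untreated cells (log2 fold change -0.86, SE 0.134, edgeR adjusted p = 8.92e-05). The other channel subunits did not pass the test. SEC61A1, the pore-forming subunit, had 257 and 283 CPM in SP2509 cells, against 242 and 231 CPM in untreated cells (log2 fold change 0.19, edgeR adjusted p = 0.107). SEC61G, the other small subunit, had 67.6 and 62.7 CPM in SP2509 cells, against 54.4 and 57.5 CPM in untreated cells (log2 fold change 0.22, edgeR adjusted p = 0.0819). Both passed the test when either siPIR library was left out of the fit, at log2 fold changes of 0.21 for SEC61A1 (adjusted p = 0.00768 with replicate 1 left out and 0.00788 with replicate 2 left out) and 0.23 for SEC61G (adjusted p = 0.00613 and 0.0062).

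The scaling set the size of these rises. With upper-quartile scaling the median of all genes moved to -0.27 and that of the 39 genes to 0.78, with 32 called higher and 1 lower and 25.5% of all genes called higher. With total counts the medians were -0.43 for all genes and 0.62 for the 39 genes, with 29 called higher, 1 lower, and 20.4% of all genes called higher. The distance between both medians stayed near 1.05 on the log2 scale. The calls lost with total counts were those of PDIA4, DNAJC10, SDF2L1, EDEM2, OS9 and SEC62, named because they were lost. SDF2L1, CRELD2, SEC61A1 and SEC61G, the 4 smallest values above 0, had negative values under total counts, between -0.24 and -0.06.

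**Figure D3:**
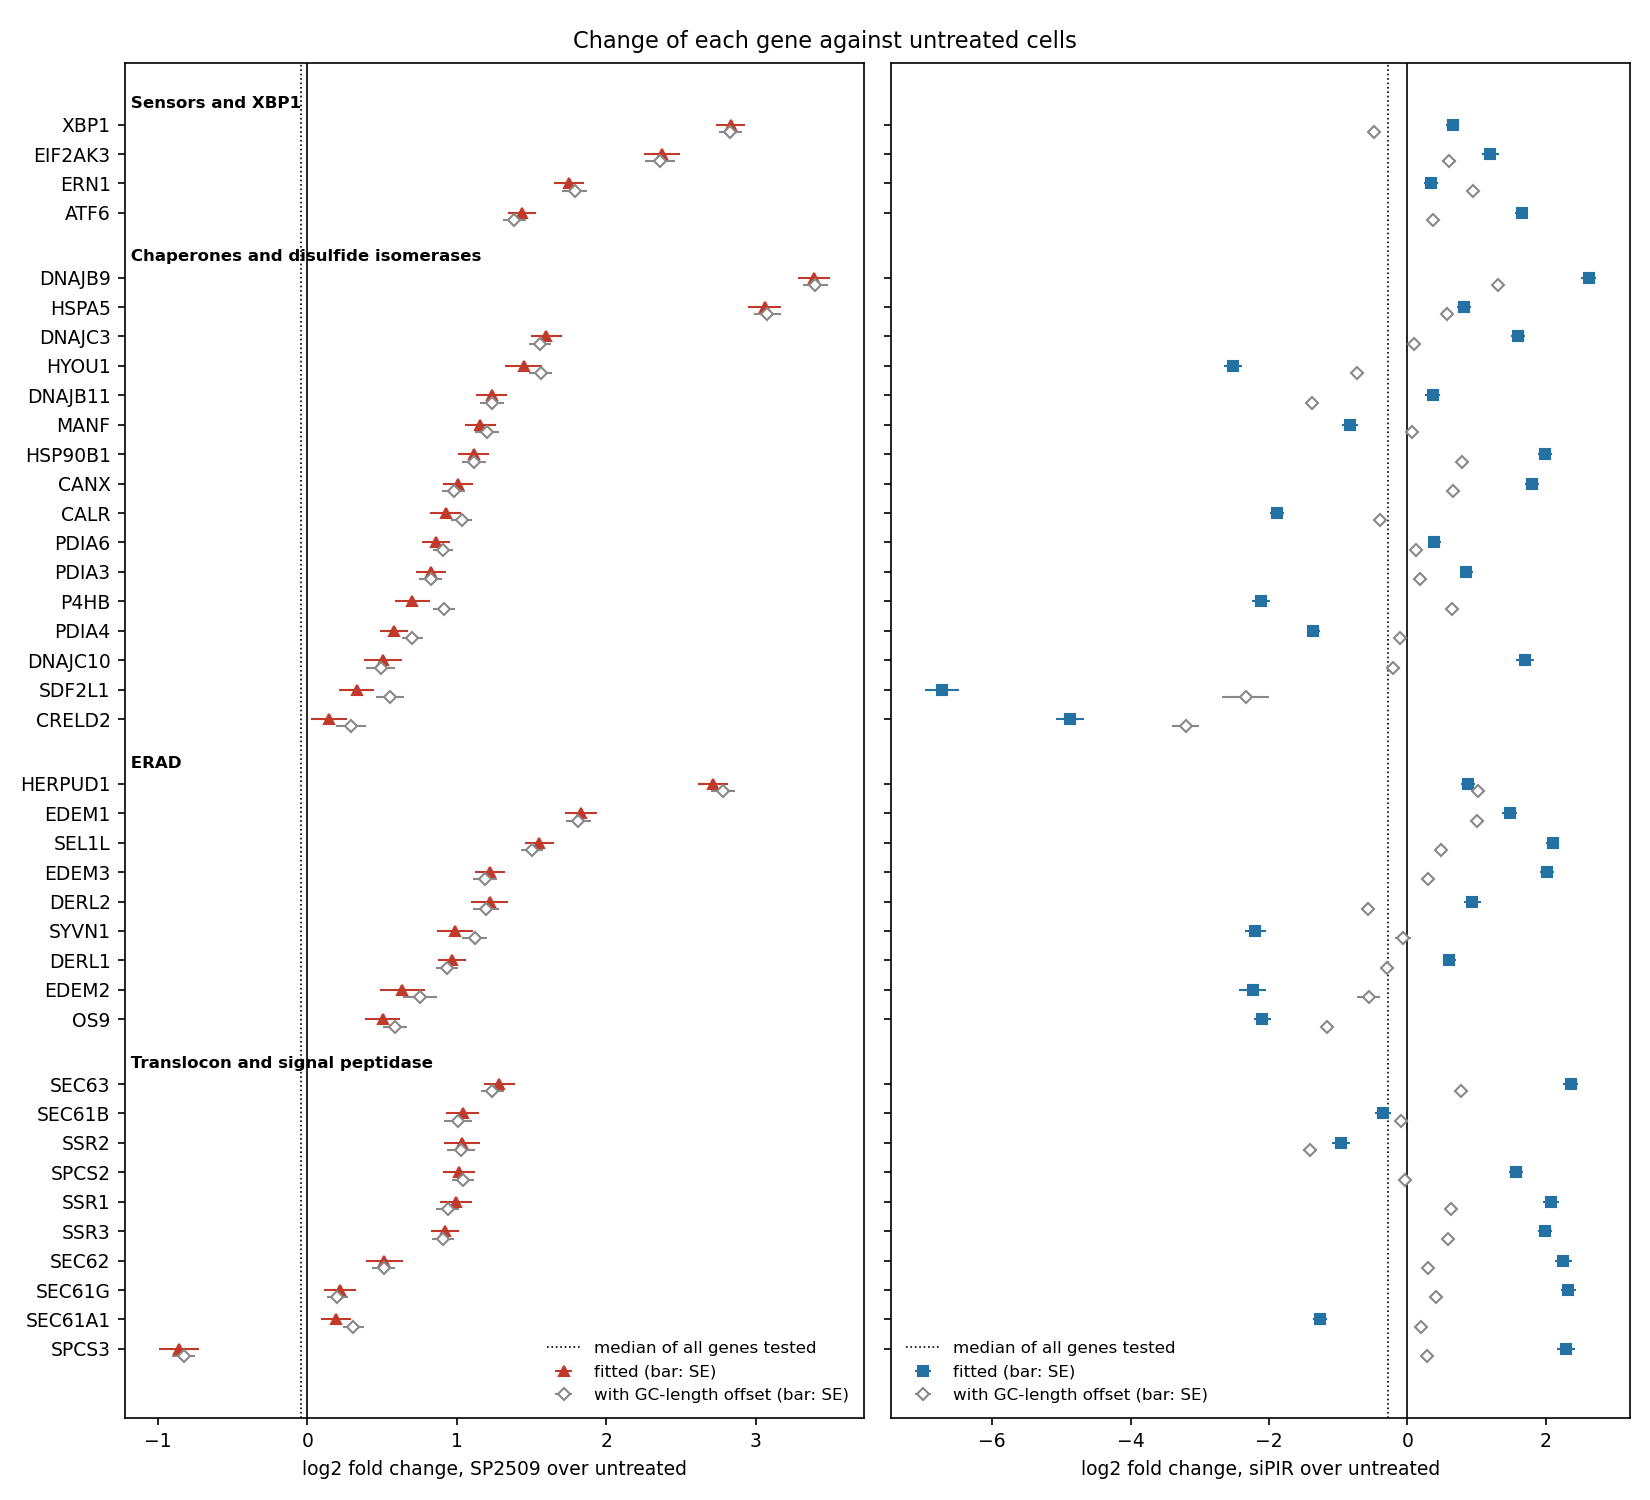
Log2 fold change against untreated cells for the 39 tested genes, for SP2509 in the left panel and siPIR in the right panel, with SE as bars and the median of all genes as a dotted line. Open diamonds are the fit with a GC-length offset; in the SP2509 panel the medians over the 39 genes are 1.01 as fitted and 1.03 with the offset, with shifts in single genes such as SDF2L1 (0.33 and 0.55), and in the siPIR panel they are 0.85 and 0.18.

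Other genes of the same pathways, taken from lists of 138 genes, were less uniform. Their counts are read against the 33.5% of all genes called higher and the 35.1% called lower. Of 22 further stress transducers and targets, 17 were higher and 4 lower in SP2509 cells, with a median log2 fold change of 0.95. The largest rises were in ATF3 (5.79), DDIT3 (5.50) and TRIB3 (4.23), known targets of the PERK and ATF4 branch. The falls were led by CREB3L1, with 3 and 2 counts in SP2509 cells against 37 and 31 in untreated cells, by ERN2, with 8 and 6 counts against 36 and 36, and by ATF6B (-0.86). Of 40 other ER folding genes, 17 (42.5%) were higher and 8 (20%) lower (median 0.16). DNAJC1 (1.76), NUCB2 (1.75) and ERP44 (1.56) were highest and CNPY4 (-2.52), FKBP7 (-1.86) and CDNF (-1.41) lowest. Counts at the low end were few in the SP2509 libraries, with 27 and 12 for CNPY4, 42 and 31 for FKBP7 and 14 and 8 for CDNF. Of 32 other ERAD genes, 16 were higher and 5 lower (median 0.30). YOD1 (1.85), SELENOK (1.71) and SELENOS (1.70) led the rises, and FOXRED2 (-1.33), ERLIN2 (-1.13) and VCP (-0.74), the gene of the ATPase that extracts ERAD substrates, led the falls. Of 44 other translocation genes, 25 were higher and 7 lower (median 0.42), led by SEC11C (1.98), a catalytic subunit of signal peptidase, SRPRB (1.34) and TRAM1 (1.27). Lower were SRP9 (-1.18), NCLN (-0.95) and TUSC3 (-0.91).

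In siPIR cells the same genes went both ways. Against untreated cells 26 of the 39 were higher and 13 lower (edgeR, adjusted p below 0.05), where 39.3% of all genes were called higher and 46.9% lower. Their log2 fold changes had a median of 0.85, against -0.28 for all genes. All 4 sensor genes were called higher, as were 9 of 16 chaperones, 6 of 9 ERAD genes and 7 of 10 translocon genes, while 7 chaperones, 3 ERAD genes and 3 translocon genes were lower. With total counts the split over the 39 genes was 20 higher and 16 lower (29.1% and 56.7% of all genes), with a median of 0.24 against -0.89 over all genes.

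Direction followed the GC content of the transcripts. All 21 genes with a GC content between 35% and 45% were higher in siPIR cells, and the 12 above 50% were lower except ERN1. In the range of 35% to 40% the median log2 fold change was 2.02 for 11 of the ER genes and 1.86 for all genes. Between 40% and 45% it was 1.73 for 10 ER genes and 1.08 for all genes, and between 45% and 50% it was 0.60 for 6 ER genes and 0.06 for all genes. Between 50% and 55% it was -1.62 for 8 ER genes and -1.18 for all genes, and between 55% and 60% it was -2.19 for 3 ER genes and -2.61 for all genes. The 39 genes had a median GC content of 43.8%, against 48.5% for all genes tested. In SP2509 cells the medians of the same 5 GC ranges lay between 0.61 and 1.44 for the ER genes and between -0.16 and 0.07 for all genes.

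**Figure D4:**
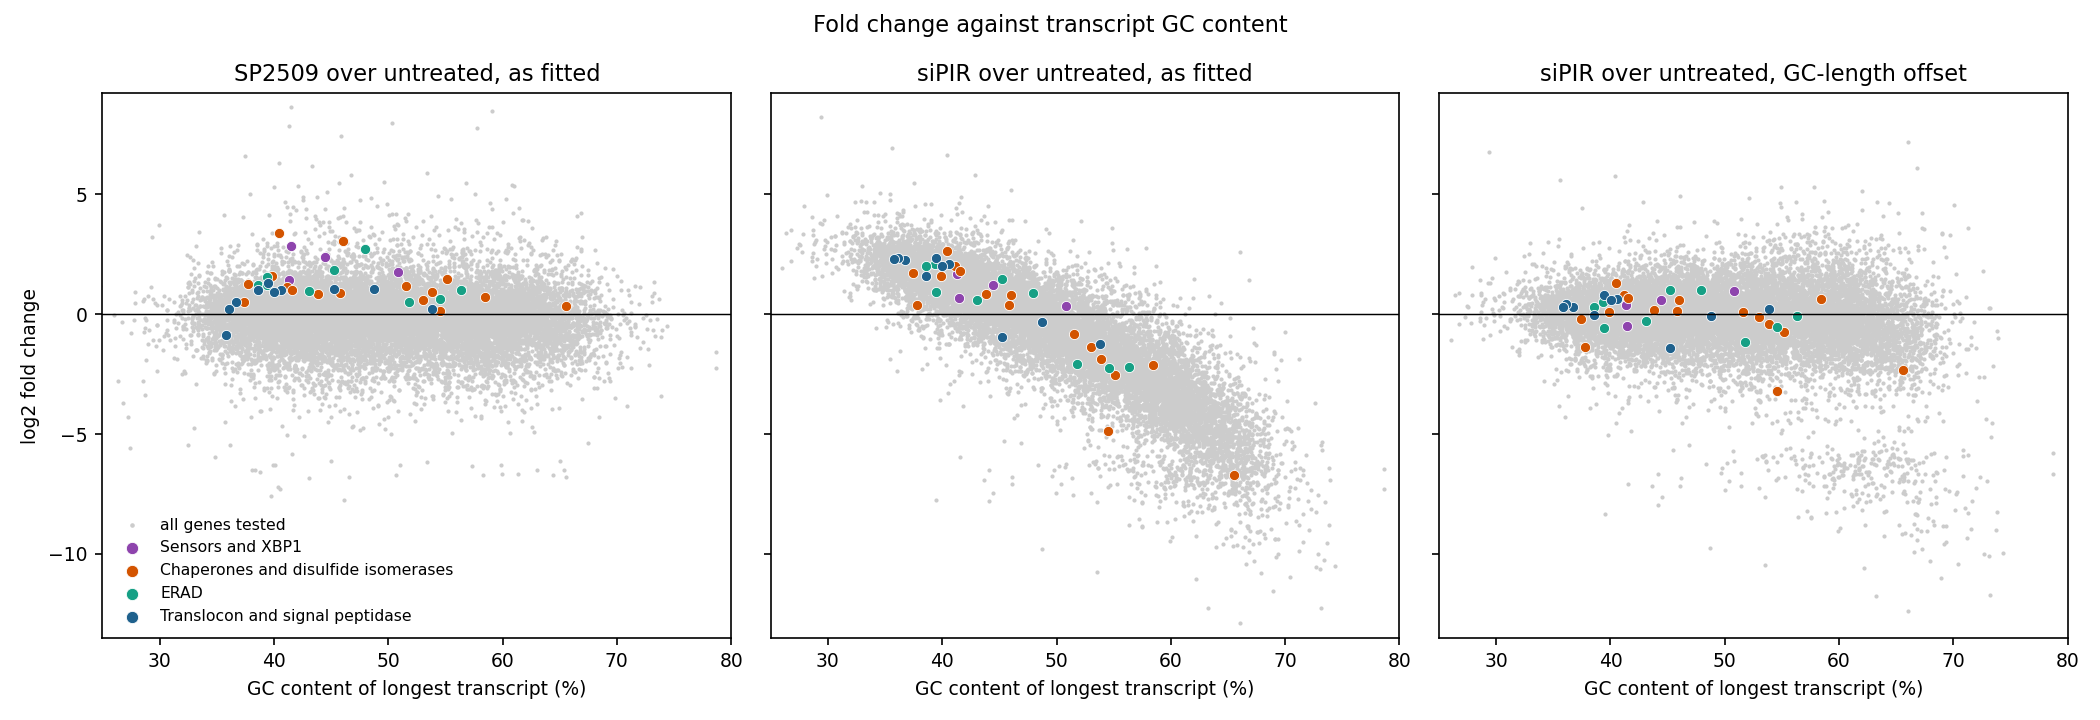
Log2 fold change against the GC content of the longest transcript, in percent, for SP2509 over untreated cells, siPIR over untreated cells, and siPIR over untreated cells with the GC-length offset. Grey points are all genes tested and coloured points the 39 ER genes by role. The middle panel slopes most, and there the ER genes slope with the grey band. Their medians are 2.02 at 35% to 40% (all genes 1.86) and -2.19 at 55% to 60% (all genes -2.61). In the ranges between, they are 1.73 against 1.08, 0.60 against 0.06 and -1.62 against -1.18.

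A fit with an offset for GC content and transcript length left 19 of the 39 genes higher and 11 lower in siPIR cells, where 32.7% of all genes were higher and 32.4% lower. The median was then 0.18 over the 39 genes and -0.04 over all genes. Of the 39 genes, 24 were called in the same direction in both fits, 6 were called in opposite directions and 9 were called only without the offset. The 6 that turned, named because they turned, were XBP1, DNAJB11, DERL1 and DERL2, which were higher without the offset, and P4HB and SEC61A1, which were lower.

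Among the sensors, ATF6 had the largest difference between siPIR and untreated cells without the offset, with a log2 fold change of 1.65 (edgeR adjusted p = 2.09e-09) that was 0.37 with the offset (adjusted p = 0.000256). EIF2AK3 rose by 1.19 (0.61 with the offset). ERN1 differed by 0.34 (edgeR adjusted p = 0.00693) and by 0.95 with the offset (adjusted p = 6.83e-09). The ERN1 call was lost without untreated replicate 1 (0.33, adjusted p = 0.0647) and without untreated replicate 2 (0.32, adjusted p = 0.0685), and with total counts ERN1 was called lower (-0.27, adjusted p = 0.029). XBP1 was higher by 0.65 (edgeR adjusted p = 2.34e-05) and lower with the offset, at -0.48 (adjusted p = 1.30e-05). With total counts its value was 0.04 and was not called (adjusted p = 0.741).

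Among the chaperones DNAJB9 and HSP90B1 showed the strongest increase in siPIR cells. DNAJB9 had 77.2 and 75.1 CPM in siPIR cells, against 12.1 and 12.7 CPM in untreated cells (log2 fold change 2.62, edgeR adjusted p = 9.86e-11, and 1.31 with the offset). HSP90B1 had 3242 and 3070 CPM in siPIR cells, against 793 and 798 CPM in untreated cells (log2 fold change 1.99, edgeR adjusted p = 7.76e-10, and 0.79 with the offset). The largest falls were in SDF2L1 and CRELD2, the pair with the smallest chaperone values for SP2509. SDF2L1 had 3 and 8 counts in the siPIR libraries, against 1038 and 1041 in the untreated libraries (log2 fold change -6.72, edgeR adjusted p = 5.30e-11, and -2.34 with the offset). CRELD2 had 0.679 and 1.30 CPM in siPIR cells, against 30.8 and 27.4 CPM in untreated cells (log2 fold change -4.87, edgeR adjusted p = 1.22e-10, and -3.20 with the offset). With a GC content of 65.5% SDF2L1 was the most GC-rich of the 39 genes.

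Of the ERAD genes, SEL1L and EDEM3 rose most in siPIR cells without the offset, and HERPUD1 (1.02, and 0.87 without it) and EDEM1 (1.0, and 1.48 without it) with the offset. SEL1L had 350 and 337 CPM in siPIR cells, against 81.4 and 78.7 CPM in untreated cells (log2 fold change 2.10, and 0.48 with the offset). EDEM3 had 134 and 126 CPM in siPIR cells, against 30.9 and 33.5 CPM in untreated cells (log2 fold change 2.02, and 0.30 with the offset). EDEM2 and SYVN1 fell most without the offset, and OS9 with it (-1.16, adjusted p = 2.32e-10, and -2.10 without it). EDEM2 had 2.61 and 4.89 CPM in siPIR cells, against 18.5 and 16.8 CPM in untreated cells (log2 fold change -2.23, and -0.56 with the offset, adjusted p = 0.00555). SYVN1 had 5.64 and 8.17 CPM in siPIR cells, against 31.9 and 31.4 CPM in untreated cells (log2 fold change -2.19, and -0.06 with the offset, adjusted p = 0.636).

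In the translocon SEC63 and SEC61G showed the strongest increase in siPIR cells without the offset, and SEC63, SSR1 (0.64) and SSR3 (0.58) with it. SEC63 had 284 and 274 CPM in siPIR cells, against 53.6 and 55.2 CPM in untreated cells (log2 fold change 2.36, and 0.78 with the offset). SEC61G had 300 and 261 CPM in siPIR cells, against 54.4 and 57.5 CPM in untreated cells (log2 fold change 2.33, and 0.41 with the offset). Both kept their direction with the offset at a smaller size. SEC61A1 had 92.8 and 104 CPM in siPIR cells, against 242 and 231 CPM in untreated cells (log2 fold change -1.26, and 0.20 with the offset). SSR2 had 39.1 and 51.8 CPM in siPIR cells, against 90.3 and 86.2 CPM in untreated cells (log2 fold change -0.96, and -1.41 with the offset). SSR2 thus differed from the TRAP genes SSR1 and SSR3, which were called higher in both fits.

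The further lists of pathway genes also went both ways in siPIR cells, where 39.3% of all genes were higher and 46.9% lower (32.7% and 32.4% with the offset). The folding (37.5% and 52.5%), ERAD (46.9% and 50%) and translocation (47.7% and 40.9%) lists lay near those shares without the offset. Of the 22 stress transducers 8 were higher and 14 lower, and with the offset 12 were higher and 5 lower. CREBRF (2.79, and 0.71 with the offset), PPP1R15B (2.28, and 1.45) and EIF2S1 (1.82, and 0.26) rose most without the offset. ERN2 had 0 counts in both siPIR libraries against 36 and 36 in untreated cells, and CREB3L1 had 0 and 1 against 37 and 31. With the offset ERN2 was still called lower (edgeR adjusted p = 0.0275), and CREB3L1 was not called (-1.81, edgeR adjusted p = 0.177). TRAF2, with only 7 and 10 counts in the siPIR libraries, had a log2 fold change of -5.35 (-1.87 with the offset). Of 40 folding genes 15 were higher and 21 lower (16 and 16 with the offset). At the top were ERO1A (3.69, and 2.03 with the offset), DNAJB14 (2.99, and 0.78) and HSPA13 (2.64, and 0.56). At the bottom were FKBP2 (-4.24), PRKCSH (-4.12, and -0.71 with the offset) and TXNDC5 (-4.07, and -3.23). TXNDC5 had only 9 and 6 counts in the siPIR libraries. FKBP2 was at -0.20 with the offset and was not called (edgeR adjusted p = 0.333). Of 32 ERAD genes 15 were higher and 16 lower (17 and 10 with the offset). Without the offset YOD1 (4.03), NGLY1 (2.57) and FAM8A1 (2.39) were highest, and UBXN6 (-5.43), TMUB1 (-5.07) and MAN1B1 (-2.99) lowest. Of 44 translocation genes 21 were higher and 18 lower (19 and 16 with the offset). Without the offset TRAM1 (2.63), SRP9 (2.53) and SRP19 (2.06) were highest and NCLN (-5.93), EMC10 (-4.28) and GET4 (-3.78) lowest. The translocation values lay between -2.47 and 1.14 with the offset.

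Setting siPIR cells directly against SP2509 cells, 13 of the 39 genes were higher and 24 lower, where 38.8% of all genes were called higher and 45.5% lower. With the offset 2 were higher (SPCS3 and SEC61G) and 36 lower, where 32.6% of all genes were higher and 37% lower. The median log2 fold change was -0.77 without and -1.08 with the offset over the 39 genes, against -0.23 and -0.07 over all genes. Of the 39 genes 11 were called in opposite directions by the fits, all of them higher without the offset and lower with it: ATF6, HSP90B1, CANX, DNAJC10, SEL1L, EDEM3, SEC62, SEC63, SSR1, SSR3 and SPCS2. PDIA3 and DNAJC3 were the 2 genes that were not called without the offset.

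Of the sensor genes, XBP1 (-2.18), ERN1 (-1.41) and EIF2AK3 (-1.18) were lower in siPIR than in SP2509 cells, and stayed lower with the offset (-3.31, -0.84 and -1.75). ATF6 was higher by 0.22 (edgeR adjusted p = 0.0442) and lower with the offset, at -1.02. The ATF6 call without the offset was lost when any of the 4 libraries of SP2509 or untreated cells was left out, with adjusted p between 0.126 and 0.243. HSPA5, at 907 and 1035 CPM in siPIR cells against 4628 and 4581 CPM in SP2509 cells, differed by -2.25 without the offset and by -2.50 with it.

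Among the chaperones DNAJC10 (1.19) and HSP90B1 (0.88) were the most increased in siPIR over SP2509 cells, and SDF2L1 (-7.05) and CRELD2 (-5.01) the most decreased. For ERAD these were EDEM3 (0.79) and SEL1L (0.55), against SYVN1 (-3.18, and -1.19 with the offset) and EDEM2 (-2.87, and -1.31). The lowest ERAD genes with the offset were instead DERL2 (-1.77), HERPUD1 (-1.77) and OS9 (-1.75). SDF2L1 and CRELD2 were then at -2.89 and -3.50. With the offset DNAJC10 (-0.70), HSP90B1 (-0.32), EDEM3 (-0.89) and SEL1L (-1.02) were all called lower instead. In the translocon SPCS3 had 686 and 500 CPM in siPIR cells, against 67.2 and 66.1 CPM in SP2509 cells (log2 fold change 3.15, edgeR adjusted p = 2.08e-10, and 1.12 with the offset). SEC61G followed with 2.11 (0.21 with the offset), while SSR2 (-1.99, and -2.44 with the offset) and SEC61A1 (-1.45) were the most decreased. SEC61A1 was not called with the offset (-0.10, adjusted p = 0.212).

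The further lists are read against the 38.8% of all genes called higher and the 45.5% called lower (32.6% and 37% with the offset). Of them, 4 stress transducers were higher and 17 lower in siPIR than in SP2509 cells (1 and 17 with the offset). Without the offset CREBRF (1.82), MBTPS2 (1.62) and EIF2S1 (1.54) were highest. With it CREBRF (-0.27) and MBTPS2 (-0.40) were called lower, and EIF2S1 was not called (0.01, edgeR adjusted p = 0.952). CHAC1 (-6.98, and -3.46 with the offset) and TRIB3 (-6.46, and -3.31), targets of ATF4, were among the lowest. CHAC1 had only 4 and 3 counts in the siPIR libraries. ERN2 was also called lower without the offset, with 0 counts in both siPIR libraries against 8 and 6 in the SP2509 libraries. With the offset ERN2 was not called (edgeR adjusted p = 0.208). Of the folding genes 12 were higher and 21 lower (11 and 22 with the offset). At the top were ERO1A (3.09, and 1.46 with the offset), FKBP7 (2.55, and 0.72) and DNAJB14 (2.49, and 0.22). At the bottom were FKBP2 (-4.95, and -1.12 with the offset), SERPINH1 (-4.34, and -2.28) and PRKCSH (-4.32, and -1.15). Of the ERAD genes 12 were higher and 18 lower (10 and 15 with the offset). Without the offset FAM8A1 (2.79), YOD1 (2.18) and NGLY1 (2.12) were highest and TMUB1 (-5.92), UBXN6 (-5.63) and BAG6 (-3.86) lowest. With the offset the values of this ERAD list lay between -2.42 and 1.54. Of the translocation genes 18 were higher and 24 lower (11 and 27 with the offset). Without the offset SRP9 (3.71), EMC2 (1.68) and STT3B (1.65) were highest and NCLN (-4.98), EMC10 (-4.45) and SSR4 (-4.17) lowest. The translocation values lay between -2.73 and 1.91 with the offset.

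Reads of most of these genes could be shared with other features. Counts were not whole numbers for 36 of the 40 genes in at least 1 library, and 30 overlap another annotated gene, 12 of them on the same strand and 26 on the other. Values of genes with near-identical copies elsewhere in the genome are uncertain to that degree. The spread between replicates was wider in siPIR cells, where the chi-square statistic of the counts per degree of freedom was 17.4, against 6.57 in SP2509 cells and 4.10 in untreated cells.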

How the data were processed

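RNA was sequenced from 6 HCT116 libraries made with a directional kit, per the labels' protocols. The authors counted reads per gene and deposited 1 table of estimated counts for 60675 genes. FastQC 0.11.8, Trimmomatic 0.32, HISAT2, featureCounts, Subread 1.6.2, edgeR 3.26.4 and GRCh38 are named per the submitters' processing notes; no label states the strand setting or why some counts are fractional. Counts were rounded to whole numbers, filtered with filterByExpr (16503 genes kept), scaled with TMM factors and fitted as 3 groups without covariates by edgeR 4.0.16 (R 4.3.3), with the robust quasi-likelihood test and 3 residual degrees of freedom. Benjamini-Hochberg adjustment ran over the 16503 genes, with 0.05 as the threshold. Library totals lay between 22622441 and 28816590 counts. The GC-length offset removes from each library its trend on GC content and log2 length (natural splines, 5 degrees of freedom for either), and with it any response that follows GC; 158 tested genes, none of them among the 39, had no GC value. Coordinates, lengths and GC content are from GENCODE release 29 on GRCh38. Groups came from the sample titles. The genes, their roles and the further lists were chosen with earlier results of these data known. All sensors are named; against untreated cells every tested gene is named for SP2509, with full values for the largest changes (6 chaperones, 4 ERAD and 4 translocon genes), and for siPIR the 2 largest rises and falls per role; of each further list up to 3 rises and 3 falls are named. Alternatives were 3 other scalings, DESeq2 1.42.0, limma-voom (limma 3.58.1), other filters, blocks, fewer libraries and the offset. The fit was tested on simulated data.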

Additional observations from a re-analysis of the deposited data

How the results depend on the processing

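Tested against a log2 fold change of 1, the counts were 14 higher and 0 lower for SP2509 (8.03% and 9.9% of all genes), 17 higher and 10 lower for siPIR against untreated (24.4% and 35.7%), and 4 higher and 18 lower for siPIR against SP2509 (24.1% and 34.2%). With the GC-length offset 2 genes were higher in siPIR than in SP2509 cells, and 2 with the offset and the replicate block. Of the named values in SP2509 cells, those of SDF2L1 (-0.0611), CRELD2 (-0.24), SEC61A1 (-0.20) and SEC61G (-0.17) were negative with total counts, and CRELD2 (-0.0896), SEC61A1 (-0.0403) and SEC61G (-0.015) with upper-quartile scaling. For siPIR against untreated cells, total counts turned ERN1 (-0.27), and of the 6 genes that the offset turned those named by rule were XBP1 (-0.48) and SEC61A1 (0.20), alike with the replicate block (-0.48 and 0.20). For siPIR against SP2509 cells, total counts turned ATF6 (-0.0105), and of the 11 genes that the offset turned those named by rule were ATF6 (-1.02), DNAJC10 (-0.70), HSP90B1 (-0.32), EDEM3 (-0.89) and SEL1L (-1.02), with the same values to 2 decimals under the replicate block. The cause was not tested. Leaving out 1 library gave 33 to 37 genes higher and 1 lower for SP2509, 24 to 26 higher and 12 to 13 lower for siPIR against untreated, and 12 to 13 higher and 22 to 24 lower for siPIR against SP2509, with no sign turned. Samples with the same replicate number did not deviate together (correlations -0.024, -0.038 and 0.082), so the numbers were not taken to pair the samples; the replicate block gave 35 higher and 1 lower, 26 higher and 13 lower, and 12 higher and 24 lower. A number in the sample descriptions, which the labels do not explain, is 11 and 12 for the SP2509 and for the untreated replicates and 10 and 11 for siPIR; as a block it gave 37 higher and 1 lower, 26 higher and 13 lower, and 12 higher and 24 lower. Depth limits SDF2L1 in siPIR cells most, with 3 and 8 counts.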

Other observations

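Genes downstream of folding were looked up after the values of the 40 ER genes had been seen, in 4 short lists that are given as values. In SP2509 cells 13 of 17 genes of ER exit and retrieval were called higher and 1 lower, with a median log2 fold change of 0.54 (all genes -0.04, with 33.5% called higher and 35.1% lower by edgeR). The inner and outer coat of COPII vesicles, which carry folded proteins to the Golgi, held the largest values, with SEC24A at 2.17, SEC24D at 1.99, SEC31A at 1.72, SEC23B at 1.45, SEC13 at 1.11 and SEC23A at 1.10. SEC24C was the one called lower (-0.75), and the GTPase genes SAR1A (0.02) and SAR1B (0.05) were not called. The KDEL receptors, which return chaperones to the ER, had log2 fold changes of 0.52 (KDELR1), 0.54 (KDELR2) and 0.40 (KDELR3).

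In siPIR cells 11 of these 17 genes were called higher and 5 lower against untreated cells (39.3% and 46.9% of all genes), with a median of 1.27. With the GC-length offset 9 were higher and 4 lower (32.7% and 32.4% of all genes), with a median of 0.21. SEC24A (2.41, and 0.76 with the GC-length offset) and SEC24D (1.78, and 1.43 with the offset) were higher in both fits, and SEC13 (-2.18, and -1.63 with the offset) was lower in both. KDELR2 (1.55, and 1.0 with the offset) and KDELR1 (-2.02, and -0.37 with the offset) were called in opposite directions in both fits.

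Of 8 receptors of ER-phagy, the autophagy of ER membrane, 3 were called higher and 3 lower in SP2509 cells, close to the shares of all genes. CCPG1 (1.18), ATL3 (0.77) and RTN3 (0.57) were higher, and RETREG2 (-0.74), CALCOCO1 (-0.63) and TEX264 (-0.35) were lower. In siPIR cells 4 of the 8 were higher and 4 lower (3 and 3 with the offset), also near the shares of all genes. Of 7 genes of UFMylation, a protein modification at the ER, 4 (57.1%) were higher and 1 (14.3%) lower in SP2509 cells, against 33.5% and 35.1% of all genes. The rises were led by UFC1 (0.95) and UFM1 (0.77), and UFL1 was lower (-0.33). In siPIR cells 4 of these 7 were higher and 3 lower (39.3% and 46.9% of all genes), with a median of 1.61. With the offset 2 were higher and 2 lower (28.6% each), near the 32.7% and 32.4% of all genes, with a median of -0.11. Of 8 genes of ER calcium handling, ITPR3 (1.37) and TMBIM6 (0.28) were higher and ATP2A3 (-1.28) and ITPR2 (-0.95) lower in SP2509 cells. These are 25% in either direction, below the 33.5% and 35.1% of all genes. The main ER calcium pump gene ATP2A2 (0.15) was not called.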
